A study of Homo sapiens with 60 samples.

Results

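The 40 genes described here encode factors of ribosome biogenesis and other nucleolar proteins, together with the transcription factor MYC. They were chosen by symbol from a count table of 60675 Ensembl genes, and each symbol matched 1 gene of the table. All 40 passed the filter on low counts that left 16675 genes for testing, and all 40 lay in the upper part of the tested genes by mean level. No measured value of the table entered the choice rule, but earlier results of these data were known when the genes were listed. They fall into 7 role groups, namely MYC alone, 5 RNA polymerase I genes, 5 proteins of small nucleolar ribonucleoproteins (snoRNPs), 10 early and 3 late factors of the small subunit, 10 factors of the large subunit, and 6 other nucleolar proteins.

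RNA was sequenced in bulk from HepG2, an established human hepatocellular carcinoma line, after 24 h of treatment. The treated groups received ethanol extracts of 6 plant materials or 2 formulas. Coptidis Rhizoma and Bupleuri Radix were given at 11.2, 56 and 280 µg/mL, and their highest dose was the concentration that inhibited growth by 20%. Zizyphi Fructus, Citri Unshius Pericarpium, Cimicifugae Rhizoma, Aconiti Lateralis Radix Preparata and the formulas Yijung-tang and Banhasasim-tang were given at 20, 100 and 500 µg/mL. These doses are called low, medium and high. Each dose had 2 libraries for Coptidis, Zizyphi and Yijung-tang, 3 for Citri, Cimicifugae, Bupleuri and Aconiti, and 1 for Banhasasim-tang. The 3 vehicle libraries received DMSO, which the sample label gives as 0.1% and the series text as 2%, a difference that was not resolved. The 60 libraries thus form 25 groups of 1 cell line. Whether replicates came from separate cultures is not in the labels, so the p-values reflect library-to-library spread that may be technical. In bulk RNA, fewer cells that express a gene and less of its RNA per cell cannot be told apart.

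Ribosomes are built in the nucleolus, where RNA polymerase I transcribes the long precursor of the ribosomal RNAs. SnoRNPs then guide the chemical modification of that precursor, and separate sets of factors fold, cut and package it into the small and the large subunit. MYC is a transcription factor known for raising the transcription of many of these genes, often from promoters with the sequence CACGTG, called an E-box. Hepatocytes, which secrete large amounts of protein, and tumour cells derived from them depend on steady ribosome production.

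Promoter windows of 300 bases, from 250 before to 50 after the transcription start, were read from RefSeq on GRCh38.p14. CACGTG, which reads the same on both strands, was found in 2548 of 35116 windows (7.26%). Of the 40 windows of these genes 13 (32.5%) held it. Of the 40 genes 32 had a window, and 13 of those 32 held the motif. The stretch from 80 bases before to 20 after the start is shown for FBL, UTP20 and GNL3, with the motif in capitals. These belong to a panel of genes read throughout and hold the motif within that stretch. All 3 had lower RNA at the high than at the low dose of Coptidis. BYSL, also of the panel, has the motif 29 bases after the start, outside the stretch, and had higher RNA. The FBL window lies on the minus strand at chr19:39846360-39846459, the UTP20 window on the plus strand at chr12:101280025-101280124, and the GNL3 window on the plus strand at chr3:52685952-52686051.
FBL: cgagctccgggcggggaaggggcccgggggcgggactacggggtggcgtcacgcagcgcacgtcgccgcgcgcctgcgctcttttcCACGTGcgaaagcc
UTP20: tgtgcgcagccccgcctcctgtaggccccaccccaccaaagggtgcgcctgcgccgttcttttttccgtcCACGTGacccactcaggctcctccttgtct
GNL3: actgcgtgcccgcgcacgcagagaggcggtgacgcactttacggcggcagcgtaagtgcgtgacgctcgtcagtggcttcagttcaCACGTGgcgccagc
The motif begins 7 bases after the start in FBL and GNL3, and 10 before it in UTP20. A match describes these letters only and does not show that MYC binds there.

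Library totals ran from 18015555 to 29549531 counts. All 16 hepatocyte markers read in these libraries, among them ALB, APOB and HNF4A, exceeded 1 CPM (counts scaled to a library total of 1000000) in every library. Of 9 fibroblast and endothelial markers, 6 stayed under 1 CPM in every library and DCN and KDR were at 0. PECAM1, of the endothelial markers, ran from 1.85 to 4.66 CPM. Of 7 blood cell markers PTPRC and HBB were at 0, while LYZ ran from 511 to 1646 CPM and CD68 from 19.9 to 74.8 CPM. Replicate 3 of the Bupleuri low dose stood apart from its group. Of the 40 genes, 11 lay above and 6 below 1.25-fold of the mean of the other 2 libraries, with median transcript lengths of 1758 and 6768 bases. The first 2 libraries differed by more than 1.25-fold from each other in 0 of the 40. The common biological coefficient of variation, the spread that all groups share in the test, was 6.14% with this library and 4.1% without it. The counts of the 40 genes called are therefore given for most comparisons also without it, the outlying Bupleuri library. The Banhasasim-tang low library also stood apart, with 0.485% of its counts on mitochondrial ribosomal RNA, against 8.01% and 11.8% at the medium and high doses of the formula. These 2 libraries were in turn above the 2.71% to 3.15% of the Yijung-tang libraries, which share their set, and the 2.47% to 2.61% of vehicle.

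In vehicle, the levels per length of transcript spanned a wide range. NPM1 (nucleophosmin) had 873 ± 7.01 CPM per kilobase and NCL (nucleolin) 426 ± 11.2 (SD, n = 3). The snoRNP proteins NOP56 and FBL (fibrillarin) followed with 183 ± 1.59 and 119 ± 5.25 CPM per kilobase. DDX10, a helicase of the small-subunit pathway, was lowest with 4.99 ± 0.13 CPM per kilobase. Across the 22 replicated groups, the mean level of a gene varied by a median of 1.35-fold between its highest and lowest group. The range was 2.12-fold for NOP56, 2.03-fold for UTP20, 1.96-fold for MYC, 1.88-fold for RRP12 and 1.84-fold for FBL, and was smallest for NOP14. Yijung-tang at the high dose held the highest mean for 20 genes and Coptidis at the high dose for 10. Coptidis at the high dose held the lowest mean for 14 genes, or 15 without the outlying Bupleuri library. The 40 genes summed to 8754 and 8788 CPM at the high dose of Yijung-tang and to 7772 to 7958 CPM in vehicle. At the high dose of Coptidis they summed to 6913 and 6935 CPM. Without NPM1 and NCL the sums were 5392 and 5405 CPM for Yijung-tang and 4714 and 4682 CPM for Coptidis at these doses. The vehicle sums were then 4570 to 4693 CPM, so the lower total with Coptidis rested on NPM1 and NCL.

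**Figure D1:**
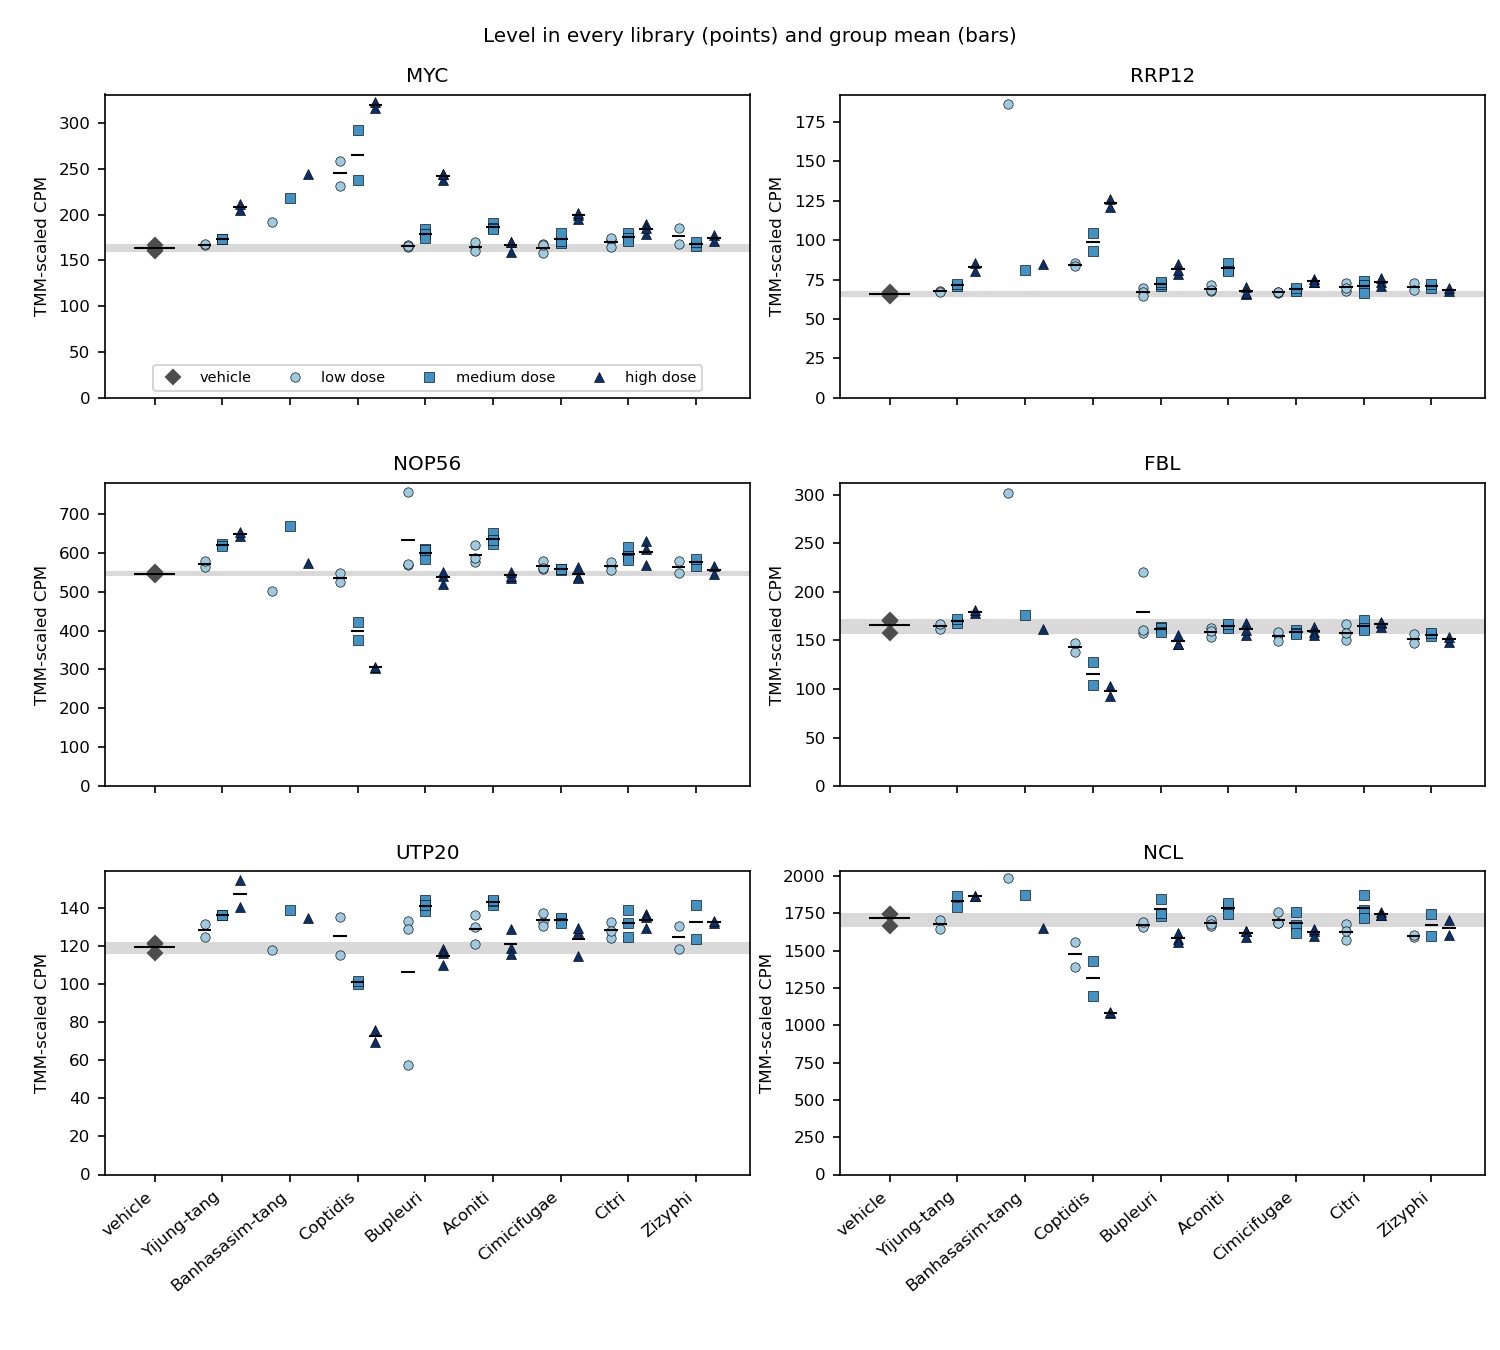
Level of MYC, RRP12, NOP56, FBL, UTP20 and NCL in each library (CPM scaled by trimmed mean of M values, vertical axis) by extract and dose (horizontal axis), with the range of the 3 vehicle libraries as a grey band. Among the replicated groups NOP56 had its lowest mean at the high dose of Coptidis (304 and 307 CPM) and its highest at the high dose of Yijung-tang (644 and 653 CPM), although 1 Bupleuri low-dose library (757 CPM) and the Banhasasim-tang medium library (668 CPM) lay above it. MYC had its highest mean at the high dose of Coptidis (323 and 317 CPM).

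The high dose of Coptidis was set against its low dose to ask how these genes follow the dose within 1 set of libraries. The genes split. MYC, the polymerase I factor RRN3 and the small-subunit factor RRP12 rose, while the core proteins of box C/D snoRNPs and most of the abundant nucleolar proteins fell. Of the 40 genes 9 rose and 16 fell at an adjusted p under 0.05 (edgeR quasi-likelihood test, Benjamini-Hochberg over all tested genes), with a median log2 fold change of -0.09. Among all tested genes 60.2% were called (30.9% higher, 29.3% lower), so the share called, 25 of 40, is close to the background. The changes were smaller than the background in size. Leaving the sign aside, the median log2 fold change was 0.219 for the 40 genes and 0.494 for all tested genes. With the outlying Bupleuri library left out 9 rose and 19 fell, against 64% of all genes called.

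MYC had 323 and 317 CPM at the high dose of Coptidis, against 232 and 259 CPM at the low dose. The libraries of the high dose lay above those of the low dose, and the log2 fold change was 0.38 ± 0.06 (SE; adjusted p = 3.0e-07). At the medium dose MYC had 292 and 237 CPM, which overlapped the low dose.

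Of the RNA polymerase I genes 2 rose and 0 fell. RRN3, which brings the polymerase to the ribosomal DNA promoter, had 170 and 176 CPM at the high dose, against 118 and 112 CPM at the low dose. Its groups did not overlap, and the log2 fold change was 0.59 ± 0.05 (adjusted p = 1.2e-14). POLR1C, a subunit shared with RNA polymerase III, rose by 0.33 ± 0.09 on the log2 scale. The largest subunit POLR1A (-0.10 ± 0.14, adjusted p = 0.58), the second subunit POLR1B (-0.07 ± 0.08, adjusted p = 0.48) and the promoter-binding factor UBTF (-0.11 ± 0.05, adjusted p = 0.057) did not pass the test. RRN3 has close copies in the genome between which reads were divided in counting, so its level is uncertain.

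Of the snoRNP proteins 3 of 5 fell and 0 rose. NOP56, which lies at chr20:2652145-2658393 on GRCh38, had 304 and 307 CPM at the high dose, against 524 and 548 CPM at the low dose. The log2 fold change was -0.81 ± 0.07 (adjusted p = 8.3e-14), the largest among the 40 genes, and the groups lay far apart. FBL, the methyltransferase of box C/D snoRNPs, had 92.8 and 103 CPM at the high dose, against 138 and 147 CPM at the low dose. FBL fell by 0.55 ± 0.08 and NOP58, the partner of NOP56, by 0.51 ± 0.08 on the log2 scale (adjusted p = 3.3e-07 and 8.2e-07). DKC1, the pseudouridine synthase of box H/ACA snoRNPs, was at -0.03 ± 0.06 (adjusted p = 0.66), and NOLC1, a nucleolar chaperone of snoRNPs, at -0.07 ± 0.06 (adjusted p = 0.32).

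Among the 10 early factors of the small subunit 3 rose and 3 fell. RRP12 had 126 and 121 CPM at the high dose, against 85.3 and 83.7 CPM at the low dose, a log2 fold change of 0.55 ± 0.05 (adjusted p = 1.9e-12). WDR75 and UTP4, both of the complex that first binds the precursor, rose by 0.31 ± 0.06 and 0.23 ± 0.05. UTP20, a large scaffold protein, had 75.7 and 69.7 CPM at the high dose, against 135 and 115 CPM at the low dose, and fell by 0.79 ± 0.17 (adjusted p = 9.1e-05). WDR43 and UTP15, of the same complex as UTP4, fell by 0.24 ± 0.06 and 0.18 ± 0.07, so members of 1 complex moved in both directions. The other 4 early factors ranged from -0.17 for RRP9 to 0.05 for HEATR1. Of the 3 late factors BYSL rose by 0.29 ± 0.07 (adjusted p = 0.00077), while NOB1, the nuclease that makes the final cut of the small-subunit RNA, and TSR1 did not pass the test.

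Of the 10 large-subunit factors 1 rose and 5 fell. The rise was that of NOP2, a methyltransferase of the large ribosomal RNA, by 0.20 ± 0.06. LAS1L, a nuclease that cuts the spacer of the precursor, fell by 0.33 ± 0.06 (adjusted p = 1.7e-05), and RRS1, RRP1B, DDX18 and WDR12 fell by 0.33, 0.25, 0.21 and 0.13. BOP1 (-0.09, adjusted p = 0.50) and PES1 (0.06, adjusted p = 0.39), the partners of WDR12 in one complex, did not pass the test.

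Of the 6 other nucleolar proteins 5 fell and 1 rose. NCL had 1081 and 1087 CPM at the high dose, against 1559 and 1392 CPM at the low dose, and fell by 0.45 ± 0.06 (adjusted p = 2.4e-09). GNL3, the nucleolar GTPase nucleostemin, had 90.2 and 94.3 CPM against 124 in both low-dose libraries, and fell by 0.43 ± 0.05 (adjusted p = 3.9e-09). LYAR fell by 0.59 ± 0.10, MYBBP1A by 0.44 ± 0.09 and NPM1 by 0.19 ± 0.06. The helicase DDX21 rose by 0.31 ± 0.05 (adjusted p = 4.1e-07).

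**Figure D2:**
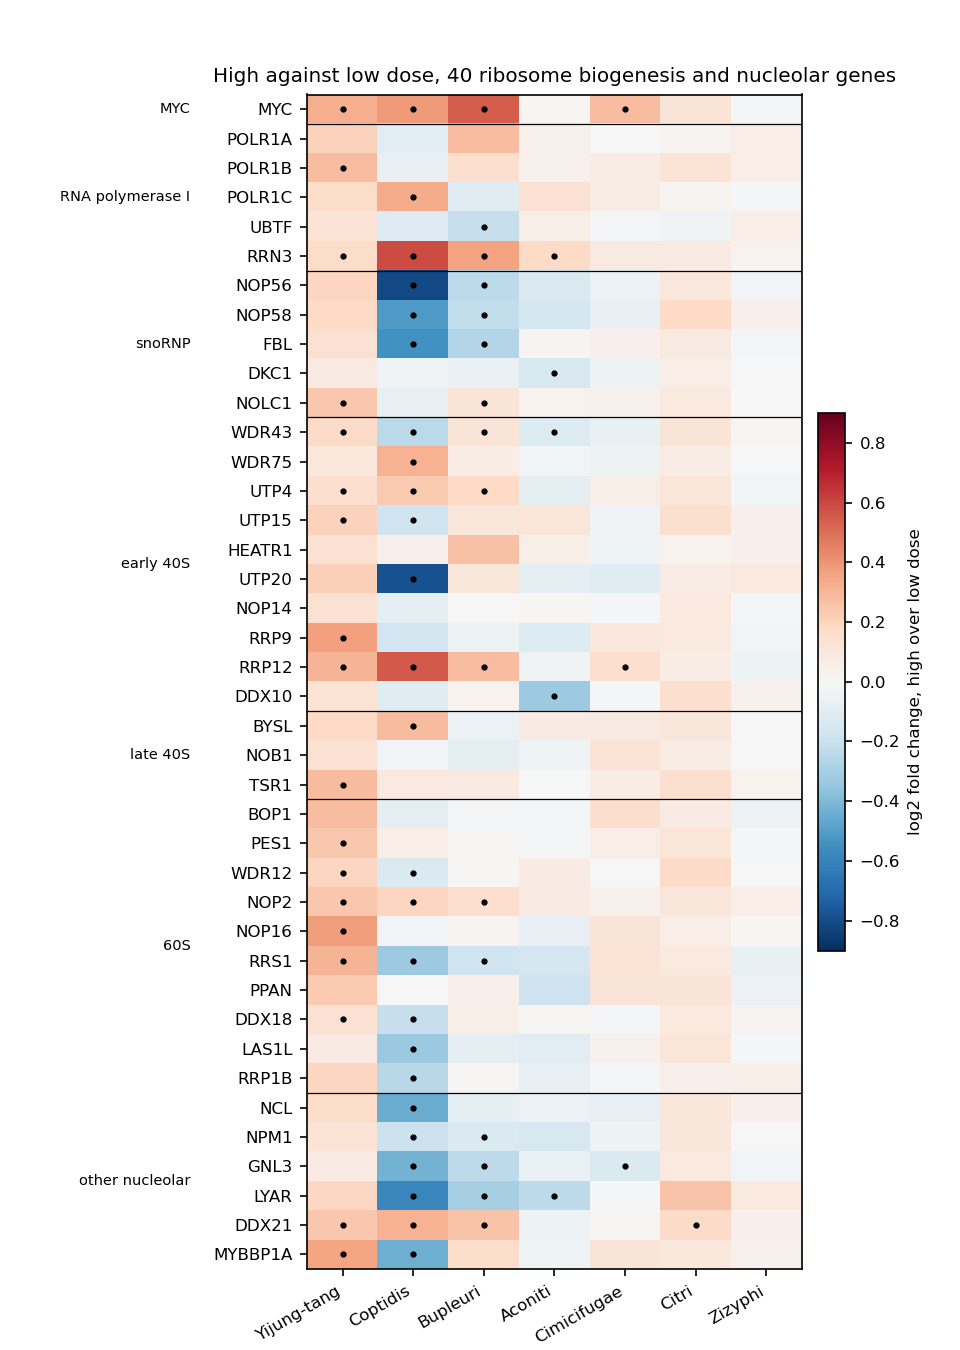
Log2 fold change of high over low dose for each of the 40 genes (down the page, by role group) in each replicated extract (across), as a colour scale with called values marked. Coptidis shows both directions, from -0.81 for NOP56 to 0.59 for RRN3, and every Yijung-tang value lies above 0.

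Against vehicle the genes called also went in both directions. The vehicle libraries form a set apart in their titles, and set and treatment cannot be told apart. At the low dose of Coptidis 11 genes rose and 5 fell, where 33.2% of all genes were called. At the medium dose 12 rose and 10 fell (50.7% of all genes called), and at the high dose 13 rose and 15 fell (67.5%). MYC had 167, 161 and 163 CPM in vehicle, and its log2 fold change over vehicle was 0.59, 0.71 and 0.97 at the low, medium and high doses. NOP56, with 544, 552 and 543 CPM in vehicle, was at -0.02 at the low dose (adjusted p = 0.82) and at -0.83 at the high dose (adjusted p = 2.2e-15). MYBBP1A rose by 0.59 ± 0.08 over vehicle at the low dose and was at 0.14 ± 0.08 at the high dose (adjusted p = 0.12). Leaving out the outlying Bupleuri library, the counts were 14 rises and 7 falls at the low dose (40.4% of all genes called), 17 and 12 at the medium dose (56.1%) and 16 and 16 at the high dose (70.6%). With offsets for GC content and transcript length, 18 rose and 3 fell at the low dose, where GNL3 was at 0.05 (-0.16 without the offsets) and PPAN at -0.01 (0.26 without them). A separate fit of Coptidis and vehicle had 12 rises and 2 falls at that dose. The shares of all genes called with the offsets and in the separate fit are not given.

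Zizyphi shares its set with Coptidis, so a comparison of the 2 extracts does not rest on vehicle. The doses of the 2 extracts differ at each level. At the high level 13 genes were higher and 15 lower with Coptidis than with Zizyphi (64.4% of all genes called), and at the low level 11 were higher and 0 lower (16.5%, and 9.19% called higher). At the medium level 11 were higher and 10 lower (44.6%). With the outlying Bupleuri library left out 13 were higher and 16 lower at the high level (68.4%), 12 and 13 at the medium level (50.6%), and 12 and 0 at the low level (24.1%, and 13% higher). DESeq2 also called 11 higher and 0 lower at the low level, and 2 genes were lower at an unadjusted p under 0.05. At that level MYC was higher by 0.48 ± 0.06 (adjusted p = 5.9e-08), BOP1 by 0.36 ± 0.11 and MYBBP1A by 0.35 ± 0.09. The count of 11 at the low level fell to 7 without replicate 3 of the Coptidis low dose and to 5 without replicate 3 of the Zizyphi low dose.

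Mitochondrial ribosomal RNA took 5.41% and 5.68% of the counts at the high dose of Coptidis, against 11.8% and 11.6% at the low dose, 10.2% and 11.5% at the medium dose, 2.41% to 2.61% in the Zizyphi libraries and 2.47% to 2.61% in vehicle. Of the 16 hepatocyte markers 12 fell and 2 rose at the high against the low dose, with or without the outlying Bupleuri library. The part of either in the results on the 40 genes was not tested.

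With Yijung-tang the genes that passed the test moved in 1 direction. At the high against the low dose 18 of the 40 rose and 0 fell (7.29% of all genes called, and 3.98% called higher), with a median of 0.19. All 40 fold changes lay above 0, as they did for Aconiti at the medium against the low dose. With Citri 39 did at the high against the low dose. DESeq2 called 20 higher and 0 lower, and at an unadjusted p under 0.05 edgeR had 28 higher and 0 lower. The shares of all tested genes are not given for these counts. In the fit without the outlying Bupleuri library 28 rose and 0 fell, where 12.1% of all genes were called and 6.19% called higher.

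The rises were small and spread over the roles. MYC had 205 and 212 CPM at the high dose, against 166 and 168 CPM at the low dose, a log2 fold change of 0.32 ± 0.06 (adjusted p = 0.00015). POLR1B had 114 and 110 CPM at the high dose, against 95.2 and 91.6 CPM at the low dose, and rose by 0.28 ± 0.08 (adjusted p = 0.015). In both genes the groups did not overlap. RRN3 rose by 0.17 ± 0.05, and the other 3 polymerase I genes did not pass the test.

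Of the snoRNP proteins NOLC1 rose, by 0.24 ± 0.06 (adjusted p = 0.0029). NOP56 had 644 and 653 CPM at the high dose, against 562 and 580 CPM at the low dose, a log2 fold change of 0.19 ± 0.07 that did not pass the test (adjusted p = 0.087). FBL was at 0.14 ± 0.08 (adjusted p = 0.41). Of the early small-subunit factors 5 of 10 rose, led by RRP9, a protein of the U3 snoRNP, at 0.37 ± 0.10 and RRP12 at 0.30 ± 0.05. UTP20 was at 0.21 ± 0.16 (adjusted p = 0.56). Of the late factors TSR1, a GTPase-like protein, rose by 0.29 ± 0.06.

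Of the large-subunit factors 6 of 10 rose. NOP16 had 52.1 and 53.9 CPM at the high dose, against 40.3 and 41.7 CPM at the low dose, and rose by 0.38 ± 0.10 (adjusted p = 0.016). RRS1 had 80.1 CPM in both high-dose libraries, against 63.4 and 66.8 CPM at the low dose, and rose by 0.31 ± 0.08 (adjusted p = 0.0054). Their levels did not overlap between the doses. BOP1 was at 0.28 ± 0.11 (adjusted p = 0.13). Of the other nucleolar proteins MYBBP1A rose by 0.36 ± 0.09 and DDX21 by 0.24 ± 0.05, while NCL was at 0.16 ± 0.06 (adjusted p = 0.064), NPM1 at 0.12 ± 0.06 (adjusted p = 0.32) and GNL3 at 0.07 ± 0.05 (adjusted p = 0.53).

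Group means rose in the order low, medium, high in 36 of the 40 genes with Yijung-tang, against 27 with Citri and 9 with Coptidis. The order of the doses was not counted over all tested genes. Against vehicle, 0 genes were called at the low dose of Yijung-tang (1.69% of all genes called), where DESeq2 also called 0 and an unadjusted p under 0.05 was reached by 2 higher and 3 lower. At the medium dose 6 rose and 0 fell (6.24%, and 3.59% called higher), and at the high dose 21 rose and 0 fell (17.3%, and 9.5% called higher). At the high dose MYBBP1A, at 0.57 ± 0.08, RRP9, at 0.44 ± 0.09, and PES1, at 0.40 ± 0.05, were the largest rises over vehicle. The count of 18 between the high and low doses was 6 to 11 without any 1 of the 4 Yijung-tang libraries at these doses. Over vehicle the count at the high dose was 33 with offsets for GC content and transcript length, and 30 rises without the outlying Bupleuri library (24.8% of all genes called, 12.8% higher). The count of 6 at the medium dose was 2 without replicate 3 of vehicle or without either medium-dose library, and 16 rises and 1 fall without the outlying Bupleuri library (12.6%). DESeq2 called 8 higher and 0 lower at the medium dose and 23 and 0 at the high dose, and at an unadjusted p under 0.05 edgeR had 16 higher and 1 lower, and 28 and 0.

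Hepatocyte markers moved beside these rises, with 2 of 16 higher and 9 lower at the high than at the low dose of Yijung-tang (2 and 10 without the outlying Bupleuri library), and their part was not tested. Mitochondrial ribosomal RNA was 3.15% and 3.07% of the counts at the high dose, against 2.73% and 2.95% at the low dose.

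**Figure D3:**
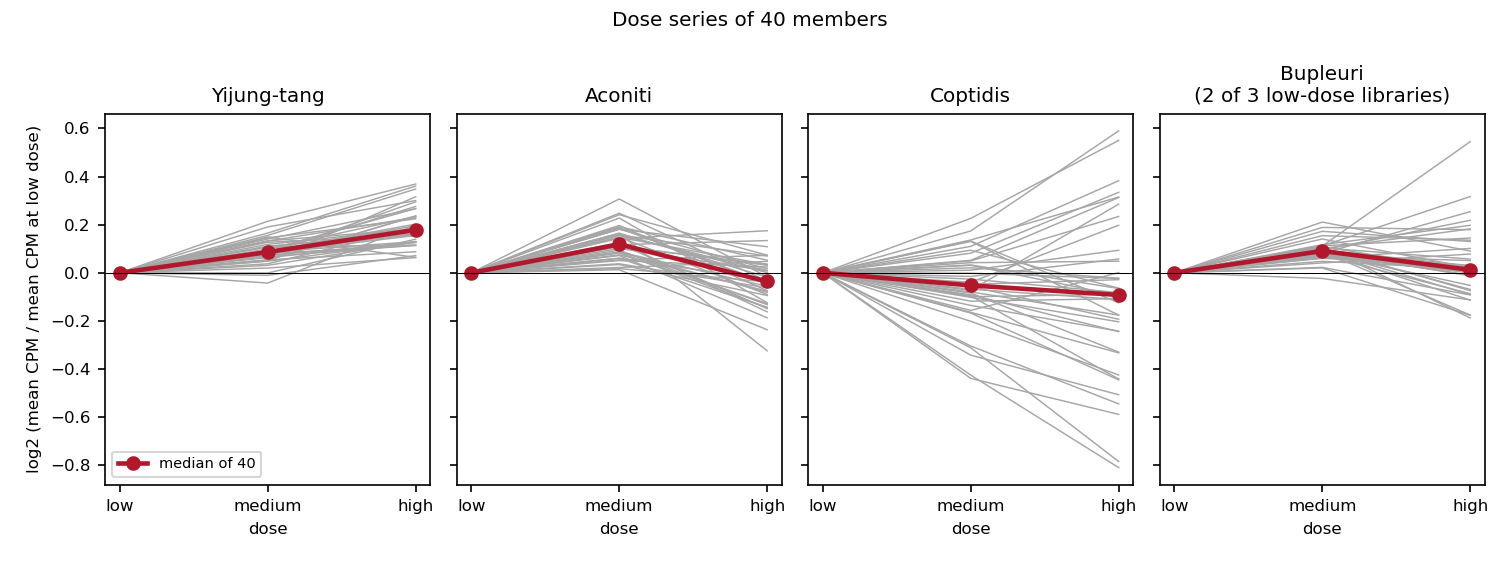
Log2 ratio of each gene's mean CPM to its mean at the low dose (vertical axis) against dose (horizontal axis), for Yijung-tang, Aconiti, Coptidis and Bupleuri, with 1 grey line per gene and the median of the 40 genes in red. The outlying Bupleuri library is left out. Yijung-tang climbs with dose, Aconiti peaks at the medium dose and Coptidis spreads in both directions.

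The dose response (high over low) of Yijung-tang was tested against that of Coptidis, a comparison chosen after the counts above were seen. The 2 extracts come from different sets and had different doses, so extract, dose and set cannot be told apart in it. Taken with its sign, the response was higher with Yijung-tang for 23 genes and lower for 3, with 48.7% of all genes called (24.8% higher, 24% lower). A large fall with Coptidis beside a small value above 0 with Yijung-tang counts as higher, as for NOP56 and UTP20. The counts were 28 higher and 3 lower without the outlying Bupleuri library (54.1% of all genes called). NOP56 differed by 1.00 ± 0.10 on the log2 scale (adjusted p = 7.3e-12) and UTP20 by 1.00 ± 0.23 (adjusted p = 0.00041). MYBBP1A (0.80), LYAR (0.77), NOP58 (0.69), FBL (0.68), RRS1 (0.64) and NCL (0.61) followed. RRN3 (-0.42 ± 0.07), RRP12 (-0.24 ± 0.07) and WDR75 (-0.21 ± 0.08) had the smaller response with Yijung-tang. The difference for MYC was -0.06 ± 0.08 (adjusted p = 0.61), which does not show that the responses were equal.

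Read side by side, 6 genes rose with both extracts, of 18 that rose with Yijung-tang and 9 that rose with Coptidis, and 6 rose with Yijung-tang but fell with Coptidis. In the fit without the outlying Bupleuri library the numbers were 7 and 13, and the 13 included NOP56, NOP58, NCL, UTP20 and MYBBP1A. Such shared calls were not counted over all tested genes, of which 60.2% were called with Coptidis and 7.29% with Yijung-tang in the fit of all libraries. The E-box shown above was present in 4 of 7 genes with a window that rose with Coptidis, 6 of 12 that fell and 3 of 13 that were not called. For Yijung-tang it was present in 7 of 13 that rose and 6 of 19 that were not called.

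**Figure D4:**
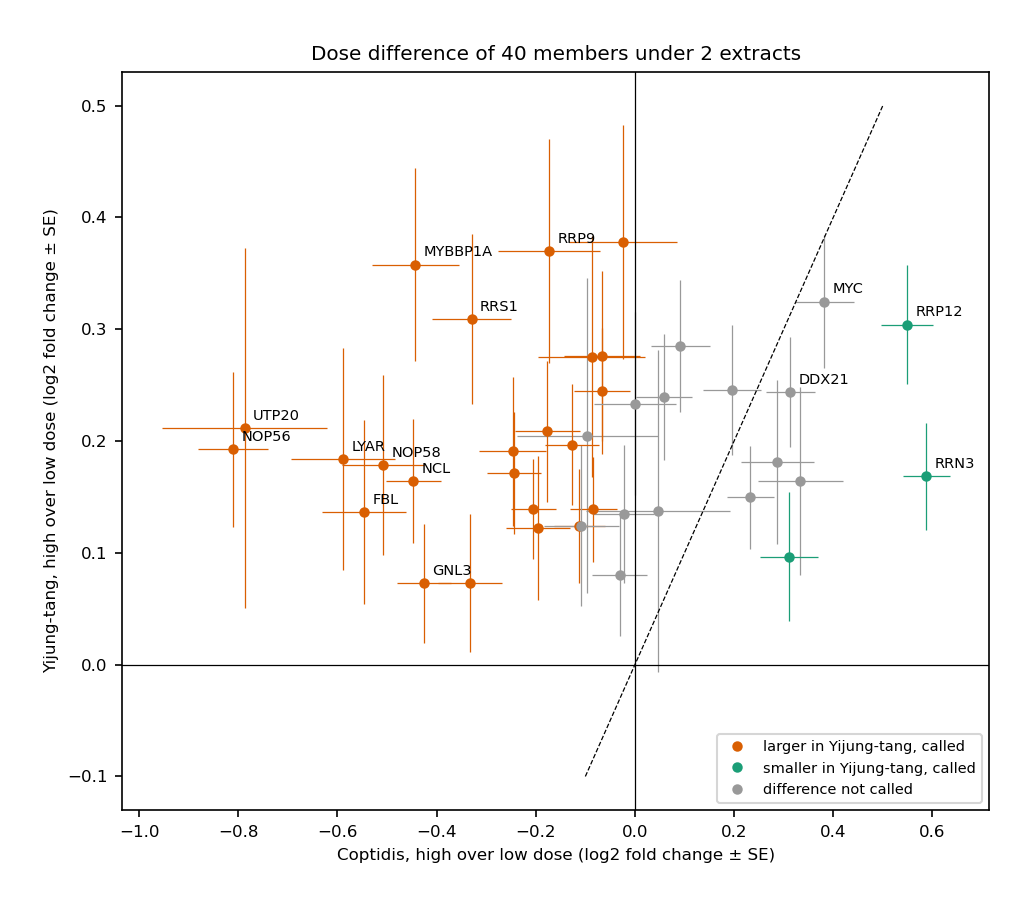
Log2 fold change of high over low dose with Yijung-tang (vertical axis) against that with Coptidis (horizontal axis) for the 40 genes, with bars of 1 SE. Genes with a called difference are orange where the fold change, taken with its sign, was higher with Yijung-tang (23, "larger" in the key). They are green where it was lower (3, "smaller" in the key), and the others are grey.

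With Aconiti these genes were highest at the medium dose. At the medium against the low dose 10 rose and 0 fell (10.5% of all genes called, 4.86% higher), and at the high against the medium dose 0 rose and 23 fell (20.2% of all genes called, 10.3% lower). In 36 of the 40 genes the mean was highest at the medium dose, against 23 with Zizyphi and 22 with Bupleuri, all libraries included. This too was not counted over all tested genes. Both comparisons were added after the high and low doses had been seen to differ in few genes, with 1 rise (RRN3) and 4 falls (14.6% of all genes called). At an unadjusted p under 0.05 the counts were 21 rises and 0 falls at the medium against the low dose, and 0 rises and 26 falls at the high against the medium dose. The share of all tested genes at that threshold is not given. DESeq2 called 11 rises and 0 falls in the first comparison, and 0 rises and 24 falls in the second.

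RRP12 had 67.9, 71.7 and 68.5 CPM at the low dose of Aconiti, 81.0, 85.7 and 80.4 CPM at the medium dose and 66.0, 70.7 and 66.6 CPM at the high dose. The medium libraries lay above all others, with log2 fold changes of 0.25 ± 0.04 for medium over low (adjusted p = 2.7e-05) and -0.29 ± 0.04 for high over medium (adjusted p = 1.8e-06). MYC, at 164, 170 and 160 CPM, then 191, 185 and 184 CPM, then 159, 170 and 170 CPM, followed the same course (0.19 ± 0.05 and -0.17 ± 0.05).

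Among the other roles, BOP1 changed by 0.31 ± 0.09 and then by -0.33 ± 0.09, and the large-subunit factors held 4 of the 10 rises and 8 of the 23 falls. DDX10 had 35.2, 35.1 and 34.4 CPM at the low dose, 39.87, 37.35 and 40.01 CPM at the medium dose and 26.1, 30.1 and 27.4 CPM at the high dose. Its fall of 0.49 ± 0.06 at the high against the medium dose (adjusted p = 1.7e-08) was the largest of the 40, and its high-dose libraries lay below those of both other doses. NOP56 was at 0.10 ± 0.06 for medium over low (adjusted p = 0.33) and fell by 0.23 ± 0.06 at the high dose (adjusted p = 0.0022), and NPM1 (0.09, adjusted p = 0.36) likewise fell, by 0.23 ± 0.05. FBL was at 0.06 and -0.03 and passed neither test, nor did the 3 genes UTP20 (0.15 and -0.24), POLR1B (0.15 and -0.12) and GNL3 (0.04 and -0.10).

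Once the outlying Bupleuri library was left out, 21 rose and 0 fell at the medium against the low dose (16.3% of all genes called, 8.04% higher), and 0 rose and 30 fell at the high against the medium dose (28.1%, and 15.7% lower). The count of 10 fell to 6 without replicate 1 of the medium dose and was 18 with offsets for GC content and transcript length. Over vehicle, 3 genes rose and 0 fell at the low dose of Aconiti (9.89% of all genes called, 5.51% higher), 21 rose and 0 fell at the medium dose (20.9%, and 10.6% higher), and 3 rose and 4 fell at the high dose (23.2%). At the medium dose 23 genes were higher and 0 lower than vehicle at an unadjusted p under 0.05, and DESeq2 called 22 and 0. At the low dose 2 were lower at an unadjusted p under 0.05, and DESeq2 called 3 higher and 1 lower. Of the hepatocyte markers 0 rose and 6 fell at the medium against the low dose, and 7 rose and 3 fell at the high against the medium dose (0 and 9, and 7 and 6, without the outlying Bupleuri library), and their part was not tested.

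With Bupleuri MYC and several of the genes that rose with Coptidis were higher at the high dose. MYC had 237, 245 and 245 CPM at the high dose, against 165, 167 and 166 CPM at the low dose, a log2 fold change of 0.54 ± 0.05 (adjusted p = 1.1e-12), and the groups lay far apart. With all libraries 8 genes rose and 8 fell at the high against the low dose (40.2% of all genes called). Leaving out replicate 3 of the low dose, the outlying library, 7 rose and 4 fell (35% of all genes called), and 8 of the 16 calls were lost. The 8 lost calls were FBL, LYAR, NOLC1, NOP56, NOP58, NPM1, RRS1 and WDR43. NOP56 had 520, 539 and 550 CPM at the high dose, against 569, 571 and 757 CPM at the low dose, where the last value is that of replicate 3.

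The 8 calls kept in both fits were the rises of MYC, RRN3, RRP12, DDX21, UTP4 and NOP2 and the falls of UBTF and GNL3. RRN3 had 130, 131 and 127 CPM at the high dose, against 103, 105 and 93.6 CPM at the low dose, and its log2 fold change without replicate 3 was 0.31 (adjusted p = 1.1e-09). RRP12 had 78.5, 85.1 and 81.1 CPM against 69.6, 67.1 and 64.8 CPM, and rose by 0.25 in the same fit. UBTF had 96.2, 94.2 and 97.9 CPM against 108, 108 and 116 CPM, and fell by 0.18. UTP20, with 118, 116 and 110 CPM at the high dose and 133, 129 and 57.7 CPM at the low dose, was called lower (-0.19, adjusted p = 0.0050) only without replicate 3. In the fit without that library 6 genes rose with both Bupleuri and Coptidis (MYC, RRN3, RRP12, DDX21, UTP4 and NOP2), and 4 fell with both (GNL3, UBTF, UTP20 and RRP1B). Calls shared by both extracts were not counted over all tested genes, of which 35% were called with Bupleuri and 64% with Coptidis in that fit.

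The dose responses of Bupleuri and Coptidis, which come from different sets, were compared after the counts above were seen, and extract and set cannot be told apart. In the test of the difference the response, taken with its sign, was higher with Bupleuri than with Coptidis for 13 genes and lower for 5 (44% of all genes called). A smaller fall with Bupleuri also counts as higher. The counts were 19 and 5 without the outlying library (49.3%). Aconiti shares its set with Bupleuri. The response with its sign was higher with Bupleuri than with Aconiti for 7 genes and lower for 3 (24.4%), or 9 and 1 without that library (26.1%). Over vehicle, 7 genes rose and 6 fell at the low dose of Bupleuri (22.3% of all genes called), 6 rose and 0 fell at the medium dose (10.9%, and 5.43% higher), and 10 rose and 7 fell at the high dose (38.9%). Without that library these counts were 3 and 6 (12.3%), 18 and 1 (18%), and 14 and 11 (45.5%). The count at the high dose was 11 in all without replicate 2 of that dose, and the count at the low dose was 20 without replicate 1 of that dose and 9 without replicate 3. Between the high and low doses the count of 16 was 23 without replicate 1 of the low dose. At the medium dose 1 gene was lower at an unadjusted p under 0.05, and DESeq2 called 10 higher and 0 lower, and the count of 6 was 2 without replicate 3 of vehicle and 3 without replicate 1 of vehicle or replicate 3 of that dose. Of the hepatocyte markers 0 rose and 11 fell at the high against the low dose (2 and 10 without that library), and their part was not tested.

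With Citri, Cimicifugae and Zizyphi few of the 40 genes passed the test between doses. Yet 39 of the 40 fold changes lay above 0 at the high against the low dose of Citri. Their median was 0.092, against 0 for all tested genes. At an unadjusted p under 0.05 edgeR had 16 higher and 0 lower there, given without the share of all tested genes at that threshold. With Cimicifugae 23 and with Zizyphi 22 of the 40 lay above 0. At the high against the low dose DDX21 alone rose with Citri, by 0.17 ± 0.04 (adjusted p = 0.016, 0.78% of all genes called, 0.252% higher), and 7 rose without the outlying Bupleuri library, where 2.15% of all genes were called and 1.04% called higher. DDX21 was not called without 1 of 4 of the 6 libraries of these doses. With Cimicifugae MYC rose by 0.28 ± 0.05 and RRP12 by 0.15 ± 0.04, and GNL3 fell by 0.13 ± 0.04 (7.14% of all genes called). MYC had 200, 195 and 202 CPM at the high dose of Cimicifugae, against 158, 168 and 166 CPM at the low dose, with no overlap. The count of 3 fell to 1 without any of 4 libraries, which were replicates 1 and 2 of each dose. With Zizyphi 0 genes were called by edgeR or DESeq2, 0 reached an unadjusted p under 0.05, and 1 of all tested genes was called (0.006%).

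The dose responses of Cimicifugae and Citri, which share a set, differed in 0 of the 40 genes (1.33% of all genes called). At an unadjusted p under 0.05 the response, taken with its sign, was higher with Cimicifugae for 1 gene and lower for 8, and DESeq2 called 2 lower. With the outlying Bupleuri library left out 5 were lower, namely LYAR, NOP58, GNL3, WDR43 and DDX21 (3.44% of all genes called, 1.44% lower). The dose response of Coptidis differed from that of Zizyphi, in the same set, in 23 genes (49.2% of all genes called). Taken with its sign, it was higher for 8 and lower for 15, or 8 and 18 without the outlying Bupleuri library (54.9%). The Zizyphi fold changes themselves ran only from -0.069 to 0.086, so lower here does not mean weaker.

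Over vehicle, 12 genes rose and 0 fell at the high dose of Citri (14.2% of all genes called, 7.73% higher), led by MYBBP1A at 0.41 ± 0.07 and PPAN at 0.32 ± 0.07. That count was 4 without replicate 1 of the high dose, 5 to 7 without 1 of the vehicle libraries, and 20 rises and 1 fall without the outlying Bupleuri library (22% of all genes called). DESeq2 called 13 higher and 0 lower, and 1 gene was lower at an unadjusted p under 0.05. At the high dose of Cimicifugae 8 rose, among them MYBBP1A at 0.39 ± 0.07 and MYC at 0.28 ± 0.05, and 3 fell, NPM1, UTP15 and GNL3 (22.2%). That count of 11 in all was 6 without replicate 1 of the high dose, and 12 rose and 5 fell without the outlying Bupleuri library (30.2%). At the high dose of Zizyphi MYBBP1A rose by 0.28 ± 0.08 and WDR12 fell by 0.17 ± 0.05 (3.63%), and neither was called without any 1 of the vehicle libraries.

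At the low and medium doses over vehicle, 3 genes rose and 6 fell with Citri at the low dose (15.9% of all genes called) and 3 rose and 1 fell at the medium dose (10.5%). With offsets for GC content and transcript length 0 of the 9 calls at the low dose were kept, and GNL3 (0.03, against -0.12 without the offsets), PPAN (-0.02, against 0.20) and RRN3 (0.02, against -0.11) turned direction. With Cimicifugae MYBBP1A and PES1 rose and 0 fell at the low dose (6.11%, and 2.96% higher), and these 2 rose and NPM1 fell at the medium dose (10.7%). DESeq2 called the same number, 2 rises and 0 falls, at the low dose of Cimicifugae, and 2 genes were lower there at an unadjusted p under 0.05. With Zizyphi UTP15 fell and 0 genes rose at the low dose (2.8%, and 1.07% lower), where 6 were higher and 6 lower at an unadjusted p under 0.05 and DESeq2 called 1 and 2. At the medium dose of Zizyphi 0 genes were called (1.93%), where 6 were higher and 4 lower at an unadjusted p under 0.05 and DESeq2 called 1 higher. With 1 library left out the count of 9 at the low dose of Citri was 3 without replicate 1 of that dose, 5 without replicate 3 of that dose or replicate 1 or 3 of vehicle, and the count of 4 at its medium dose was 2 without replicate 1 of that dose or replicate 2 of vehicle. With Cimicifugae the 2 calls at the low dose became 0 or 1 and the 3 at the medium dose became 1 or 2, whichever library of that dose or of vehicle was left out. MYBBP1A was higher than vehicle in 16 of the 21 comparisons of a dose with vehicle and PES1 in 17, low doses included, and all of these share the vehicle libraries. MYBBP1A had 90.2, 90.7 and 92.1 CPM in vehicle, a mean below that of each treated replicated group. BOP1, a GC-rich gene, was at 0.27 ± 0.09 over vehicle at the high dose of Cimicifugae (adjusted p = 0.023) and at -0.01 with offsets for GC content and transcript length.

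Banhasasim-tang had 1 library per dose, so its values are log2 ratios to the vehicle mean with no test. The median ratio of the 40 genes was 0.14, 0.22 and 0.17 at the low, medium and high doses, against -0.045, -0.001 and 0.008 for all tested genes. Past 1.25-fold, 9 were up and 0 down at the medium dose (12.6% of all genes up, 12.2% down), and 7 were up and 0 down at the high dose (18% up, 15.2% down). At the low dose 22 lay above all 3 vehicle libraries and 17 below them (43.9% of all genes above, 46.4% below). For the medium dose 40 lay above and 0 below (34.3% above, 35.2% below), and at the high dose 32 above and 5 below (38.1% above, 36.3% below). MYC had 192, 218 and 244 CPM at the low, medium and high doses, and NOP56 had 502, 668 and 575 CPM.

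At the low dose, in the library that stood apart, 17 genes were up and 14 down past 1.25-fold (38% of all genes up, 40.9% down). The 17 had a median GC content of 55.9% (range 50.6% to 65.2%) and the 14 a median of 41.2% (37.7% to 46.3%), with no overlap. The 9 up at the medium dose had 53.9% (MYC) to 65.2% (BOP1) GC. FBL had 302 CPM in this library, against 177 and 162 CPM at the medium and high doses.

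**Figure D5:**
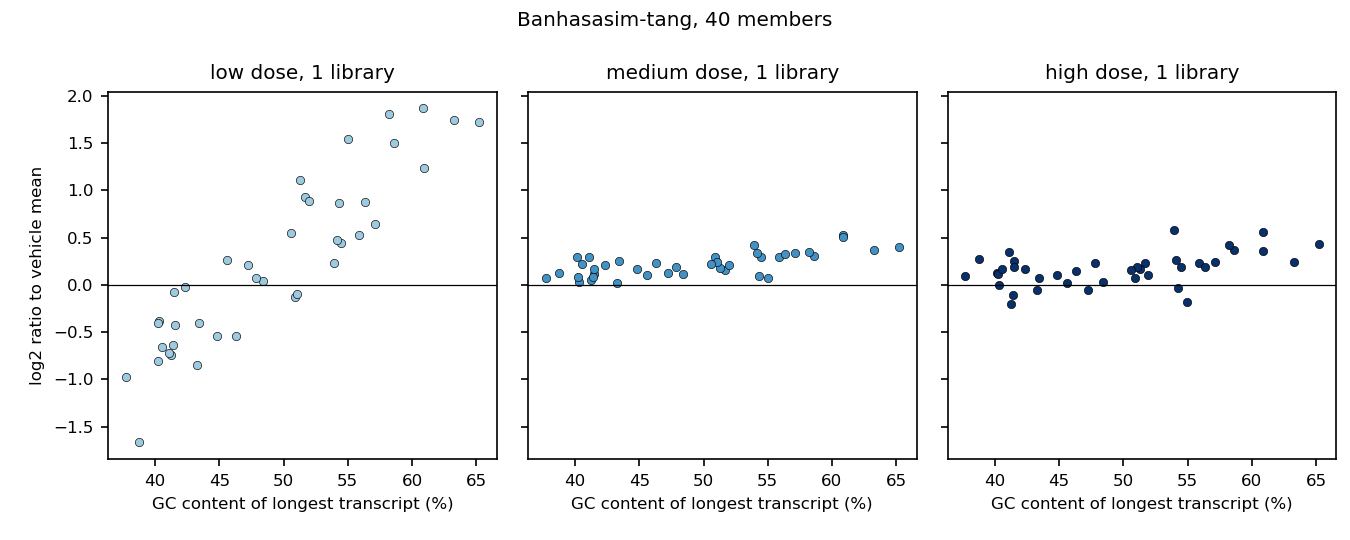
Log2 ratio of each Banhasasim-tang library to the vehicle mean (vertical axis) against the GC content of the transcript (horizontal axis, percent), for the 40 genes at each dose. At the low dose the genes above 1.25-fold have 50.6% to 65.2% GC and those below have 37.7% to 46.3% GC, while at the medium dose all 40 ratios lie above 0 and the 9 genes past 1.25-fold have 53.9% to 65.2% GC.

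Further genes of the pathway were read from lists that were also chosen with results of these data known. Of 89 other ribosome biogenesis factors, 27 rose and 0 fell at the high against the low dose of Yijung-tang, with a median of 0.16. MAK16, a large-subunit factor, rose by 0.33, WDR3 by 0.29 and PWP2 by 0.28, the last pair being small-subunit factors. With Coptidis 25 rose and 24 fell. RCL1, a small-subunit factor, rose by 1.55, EFL1, a GTPase that releases a factor from the large subunit, rose by 1.45, and MPHOSPH10, of the U3 snoRNP, fell by 1.16. With Aconiti 21 rose and 1 fell at the medium against the low dose, among the rises DIMT1 and PNO1 by 0.27 each. At the high against the medium dose of Aconiti 0 rose and 32 fell, led by TBL3, which fell by 0.33. With Bupleuri 18 rose and 14 fell. Leaving out the outlying Bupleuri library, these counts became 41 and 0 for Yijung-tang, 27 and 30 for Coptidis, 36 and 1 and then 1 and 43 for Aconiti, and 22 and 5 for Bupleuri. The shares of all genes called in each comparison are those given above.

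Of 11 other RNA polymerase I factors 2 rose and 5 fell with Coptidis at the high against the low dose (3 and 5 without the outlying Bupleuri library). TCOF1 (treacle), a nucleolar regulator of the polymerase, fell by 0.75 and the subunit POLR1G by 0.57, while TAF1B, of the promoter selectivity factor, rose by 0.53. With Yijung-tang 3 rose and 0 fell, in either fit, among them POLR1G by 0.29 and POLR1E by 0.22. Of 15 tested host genes of small nucleolar RNAs, 6 rose and 2 fell with Coptidis (8 and 2 without the outlying library), led by GAS5 at 0.63, SNHG29 at 0.53 and SNHG7 at 0.53. These rose beside the falls of NOP56, NOP58 and FBL, whose proteins bind many of the RNAs that such genes carry. In this comparison 60.2% of all genes were called. Against vehicle, 2 of the 15 were higher and 6 lower at the low dose of Coptidis, with a median of -0.23 (33.2% of all genes called). At the high dose 7 were higher and 3 lower, with a median of 0.12 (67.5%). With Bupleuri 1 host gene rose and 10 fell, or 0 and 4 without replicate 3 of the low dose, and with Yijung-tang 1 rose, SNHG17 by 0.29.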

How the data were processed

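Total RNA of HepG2 cells was made into directional mRNA libraries, per the labels' protocols. The deposited table holds the authors' expected counts from RSEM, 1 value per gene and library, without normalization. FastQC 0.11.9, Trim Galore 0.6.5, STAR 2.7.3a, RSEM 1.3.3 and GRCh38 are named in the submitters' processing notes. For the annotation, its release was not given in the sources used here. Of the 267 library columns, 207 match none of the 60 samples and were left unread. For Coptidis and Zizyphi the batch letter in the titles differs from that in the descriptions.

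Counts were rounded, scaled by TMM and tested with edgeR 4.0.16 (glmQLFTest after a robust glmQLFit) in R 4.3.3. One fit held the 57 libraries of all 22 replicated groups, with 35 residual degrees of freedom and a common biological coefficient of variation of 6.14%, after a filter by group that left out 44000 genes. A gene was called at a Benjamini-Hochberg adjusted p under 0.05 within a comparison. Counts at an unadjusted p, and those of alternative fits where no share is printed, cannot be judged against all tested genes from the text. The SE was computed as |log2 fold change| over the root of the F statistic. Levels are TMM-scaled CPM over 60 libraries. RSEM divides reads between genes of like sequence, so genes with close copies or read-through transcripts (RRN3, NPM1, PPAN) are uncertain. Gene positions, transcript lengths and GC content came from GENCODE 29, and gene symbols from a separate list of names. For Banhasasim-tang a prior count of 2 was used. Every replicate pair differed beyond sampling noise, so none was treated as a copy.

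The members and lists were chosen with earlier results of these data known. A panel (MYC, POLR1B, NOP56, FBL, UTP20, BYSL, BOP1, NCL, NPM1, GNL3) was read throughout, though not every panel value is printed for every comparison. Beside it stood the called member of largest change in each of the 7 role groups and up to 3 per further list. Other members are named as examples of their role group, after their values were seen. Alternatives were DESeq2 1.42.0, RLE scaling, no filter, a replicate block, GC and length offsets (99.3% of tested genes had both), separate fits per extract, and leaving out each library. A fit that left out the third Bupleuri low-dose library and 4 comparisons were added after seeing the data. Replicate numbers did not pair the samples in comparisons with 3 pairs, and those with 2 pairs could not meet the rule used. The scripts were tested on simulated data.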

Additional observations from a re-analysis of the deposited data

Results flagged for a closer look

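Dose responses that differ between extracts were found by a test of the difference itself (edgeR's quasi-likelihood test, adjusted over all tested genes). The response at the high over the low dose differed in 26 of the 40 genes between Yijung-tang and Coptidis, led by NOP56 (1.00 ± 0.10) and UTP20 (1.00 ± 0.23), where 48.7% of all genes were called. It differed in 23 between Coptidis and Zizyphi (49.2% of all genes), in 18 between Bupleuri and Coptidis (44%) and in 10 between Bupleuri and Aconiti (24.4%). The shares of 40 for the last pair of comparisons are close to the background, and separate fits per extract left 6 genes in each.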

How the results depend on the processing

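Counts are of the 40 genes called. They are given here without the share of all genes called in the same fit, so a change in a count may follow one in all genes. Without the third Bupleuri low-dose library, a fit chosen after seeing the data, the counts over vehicle were 7, 4 and 6 for Zizyphi at the high, medium and low doses (2, 0 and 1 with all libraries), 21, 14 and 16 for Citri (12, 4 and 9), 17, 11 and 7 for Cimicifugae (11, 3 and 2), 19 for Bupleuri at the medium dose (6), 11 for Aconiti at the high and 11 at the low dose (7 and 3), and 17 and 3 for Yijung-tang at the medium and low doses (6 and 0). At the high against the low dose they were 7 for Citri (1), 11 for Aconiti (5) and 28 for Yijung-tang (18), with 21 for Aconiti at the medium against the low dose (10) and 5 for the difference between Cimicifugae and Citri (0). Separate fits per extract gave, over vehicle at the high, medium and low doses, 9, 6 and 7 for Zizyphi, 20, 15 and 18 for Citri, 18, 14 and 10 for Cimicifugae, 7, 0 and 0 for Bupleuri (17, 6 and 13 in the joint fit) and 32, 22 and 7 for Yijung-tang (21, 6 and 0), and 15 and 12 for Aconiti at the high and low doses. At the high against the low dose they gave 5 for Citri, 8 for Cimicifugae (3), 6 for Bupleuri (16), 11 for Aconiti and 34 for Yijung-tang, 24 for Aconiti at the medium against the low dose, and for differences in dose response 5 between Cimicifugae and Citri, 6 between Bupleuri and Aconiti (10) and 6 between Bupleuri and Coptidis (18). Offsets for GC content and transcript length gave, over vehicle, 0 and 0 for Zizyphi at the high and low doses, 2 for Citri at the low dose, 6 and 1 for Cimicifugae at the medium and low doses, 15 and 8 for Bupleuri at the medium and low doses, 33 and 8 for Aconiti at the medium (21) and low doses, and 33 and 15 for Yijung-tang at the high and medium doses. They gave 3 for Citri and 11 for Aconiti at the high against the low dose, 18 for Aconiti at the medium against the low dose and 1 for Cimicifugae against Citri. DESeq2 gave 1 and 3 for Zizyphi at the medium and low doses and 10 for Bupleuri at the medium dose over vehicle, 2 for Citri at the high against the low dose and 2 for Cimicifugae against Citri. RLE scaling gave 1 for Zizyphi at the high dose over vehicle, 2 for Citri at the high against the low dose and 1 for Cimicifugae against Citri. Without a filter there were 1 and 1 for Zizyphi at the high and medium doses, 4 for Citri and 1 for Cimicifugae at the low dose over vehicle, 1 for Cimicifugae at the high against the low dose and 6 for Aconiti at the medium against the low dose. With the replicate block there were 1 for Zizyphi at the high dose over vehicle, 2 for Citri at the high against the low dose and 1 for Cimicifugae against Citri, and the block changed no other count by more than 1.5 times. With 1 library left out at a time, counts over vehicle ran from 0 to 0 for Zizyphi at the high dose and 0 to 1 at the low dose, 4 to 12, 2 to 4 and 3 to 10 for Citri at the high, medium and low doses, 6 to 11, 1 to 2 and 0 to 1 for Cimicifugae, 11 to 17, 2 to 5 and 9 to 20 for Bupleuri, 5 to 6 and 2 to 3 for Aconiti at the high and low doses, and 14 to 21 and 2 to 4 for Yijung-tang at the high and medium doses. For the high against the low dose they ran from 0 to 2 for Citri, 1 to 2 for Cimicifugae, 11 to 23 for Bupleuri, 2 to 4 for Aconiti and 6 to 11 for Yijung-tang. They ran from 6 to 10 for Aconiti at the medium against the low dose, 5 to 11 for Coptidis against Zizyphi at the low dose, 0 to 2 for the difference between Cimicifugae and Citri, 8 to 13 between Bupleuri and Aconiti and 15 to 24 between Bupleuri and Coptidis. Of 442 called values 0 changed direction under DESeq2, RLE scaling, no filter, the replicate block, separate fits or leaving out 1 library, and 9 did under the offsets, all over vehicle. These were BOP1 at the high dose of Cimicifugae (-0.01, against 0.27), BOP1 and WDR12 at the low dose of Bupleuri, GNL3, PPAN and RRN3 at the low dose of Citri, GNL3 and PPAN at the low dose of Coptidis and WDR43 at its medium dose. Replicate numbers did not pair the samples in comparisons with 3 pairs, since none had every correlation of same-numbered libraries above 0.1. Comparisons with 2 pairs could not meet the rule, so pairing was not settled there. At the high against the low dose their correlations ran from -0.015 for Yijung-tang to 0.136 for Zizyphi. The cause of each change was not tested. With 2 or 3 libraries per group, changes of the size of the spread between libraries were not detectable.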

Other observations

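RNA polymerase III makes the transfer RNAs and the small ribosomal RNA of the large subunit. Of 21 of its subunits and factors, 9 rose and 7 fell at the high against the low dose of Coptidis, where 60.2% of all genes were called. The subunit POLR3K fell by 0.92 on the log2 scale, and GTF3A, the factor that binds the genes of the small ribosomal RNA, fell by 0.82. With Yijung-tang 3 rose and 0 fell (7.29% of all genes called), or 5 and 1 without the third Bupleuri low-dose library, among them POLR3K by 0.43 and POLR3G by 0.33, so POLR3K was lower with one extract and higher with the other.

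Of 13 proteins that partner, oppose or degrade MYC, 12 were tested. At the high against the low dose of Coptidis 6 rose and 3 fell (60.2% of all genes called). MXD1, a repressor that competes with MYC for its partner MAX, rose by 2.48 on the log2 scale, beside the rise of MYC by 0.38. The related MXD3 fell by 1.56 and MLXIPL, a glucose-responsive factor of the same family, fell by 1.14. With Bupleuri 5 rose and 1 fell (40.2%), with MXD1 at 1.01, MXI1 at 0.65 and MXD3 at -0.53. With Yijung-tang 1 rose, and the 1 fall was that of MXD4, by 0.38 (7.29%). These counts were unchanged without the third Bupleuri low-dose library.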
